A study of Mus musculus with 21 samples.

Results

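The genes described here mark classical monocytes and were followed in 3 populations of mouse kidney macrophages: Ly6c2, Ly6c1, Plac8, Vcan, Hp, Lyz1, Lyz2 and G0s2. They were picked by symbol, with earlier results of these data known but with no cutoff on a measured value, and are 8 of the 34236 gene names in the count table; rows that shared a symbol were summed.

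The study asked how renal macrophages differ between a normal kidney and one made ischemic by renal artery stenosis (RAS). Kidneys came from male C57BL/6J mice aged 24 weeks that had undergone RAS, in which a cuff narrows the right renal artery, or Sham surgery; the labels name no transgene or drug. Leukocytes (CD45+) were depleted of T, B and NK cells, granulocytes and erythroid cells by antibody, gated as F4/80+CD64+, and split by CD11b and CD11c into kidney resident macrophages (KRM, intermediate for both antigens), CD11chiMϕ (CD11b high, CD11c high) and CD11cloMϕ (CD11b high, CD11c low or negative). The gate drawn in the study used these antigens, but its phenotype of the sorted populations also gives a surface level of Ly6C, high in CD11cloMϕ, intermediate in CD11chiMϕ and negative in KRM. Whether Ly6C entered the sort cannot be told from the sources used here, so the differences of Ly6c2 and Ly6c1 between populations may not be independent of it. There were 21 RNA-seq libraries: CD11chiMϕ Sham n = 3 and RAS n = 4, CD11cloMϕ Sham n = 3 and RAS n = 4, and KRM Sham n = 4 and RAS n = 3. Whether a library was pooled from several animals is not given in the sources used here, so p-values measure only the spread between these libraries.

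Classical monocytes are made in bone marrow, circulate with a high surface level of Ly6C, and enter injured tissue, where they can become macrophages and lose some of these genes as they mature. Ly6c2 and Ly6c1 encode small GPI-anchored surface antigens of 1 gene cluster; Ly6c2 is the monocyte form, while Ly6c1 is also known from endothelial cells. Plac8 encodes a cysteine-rich protein, Vcan the matrix proteoglycan versican, Hp the hemoglobin-binding protein haptoglobin, and G0s2 an inhibitor of the lipase Pnpla2. Lyz1 and Lyz2 encode lysozymes that cleave bacterial cell walls, Lyz2 being the form used widely by myeloid cells.

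The 2 pairs of near copies are shown first, because what can be said of each gene depends on how well reads tell the copies apart. In the reference transcripts of GENCODE vM21 (GRCm38), the coding sequences of Ly6c1 and Ly6c2 are 396 bases long and differ at 9 positions (97.7% identical), with a longest identical run of 188 bases. Coding bases 1 to 90 hold 6 of these differences, in capitals, read 5′ to 3′ on the transcript.
Ly6c1: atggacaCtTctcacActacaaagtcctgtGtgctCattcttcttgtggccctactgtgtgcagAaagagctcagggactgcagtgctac
Ly6c2: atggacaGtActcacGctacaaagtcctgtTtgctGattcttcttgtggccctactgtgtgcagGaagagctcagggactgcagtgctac
The lysozyme pair differs at 22 of 447 coding positions (95.1% identical), with a longest identical run of 118 bases. Coding bases 43 to 132 hold 13 of the differences, again in capitals.
Lyz1: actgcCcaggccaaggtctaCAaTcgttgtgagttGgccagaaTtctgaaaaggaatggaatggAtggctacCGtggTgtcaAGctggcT
Lyz2: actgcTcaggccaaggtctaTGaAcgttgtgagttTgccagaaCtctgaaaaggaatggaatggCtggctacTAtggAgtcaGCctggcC
Over the whole transcripts, 31.7% of the 50-base windows of Ly6c1 and 32.6% of those of Ly6c2 occur in the other copy, against 16.1% for Lyz1 and 15.4% for Lyz2. A read that lies within such a window cannot be assigned by its own sequence, so the values of these 4 genes are uncertain. The window shares do not measure how far, because the reads were paired ends and the other mate may cover a difference. Adjusted p is therefore also given for the summed pair in each pairwise comparison where a gene passed.

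All 8 genes lie on the minus strand of GRCm38. Ly6c2 (chr15:75108158-75111970, 4 exons) and Ly6c1 (chr15:75044018-75048830, 4 exons) are 59327 bases apart. Lyz1 (chr10:117287797-117292868, 4 exons) and Lyz2 (chr10:117277331-117282321, 4 exons) are 5475 bases apart. Plac8 lies at chr5:100553725-100572245 with 5 exons, Vcan at chr13:89655312-89742509 with 15 exons, Hp at chr8:109575128-109579172 with 5 exons, and G0s2 at chr1:193272161-193273217 with 2 exons.

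The promoters of the Ly6c pair are printed because the levels of the 2 genes went apart across the libraries, as shown further on. Each is the 200 bases before the RefSeq start on the minus strand of GRCm38, at chr15:75048838-75049037 for Ly6c1 and chr15:75111972-75112171 for Ly6c2, with motif matches in capitals.
Ly6c1 promoter: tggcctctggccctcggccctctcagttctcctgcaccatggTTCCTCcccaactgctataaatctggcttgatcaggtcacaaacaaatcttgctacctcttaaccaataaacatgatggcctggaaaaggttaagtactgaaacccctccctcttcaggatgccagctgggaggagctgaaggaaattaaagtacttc
Ly6c2 promoter: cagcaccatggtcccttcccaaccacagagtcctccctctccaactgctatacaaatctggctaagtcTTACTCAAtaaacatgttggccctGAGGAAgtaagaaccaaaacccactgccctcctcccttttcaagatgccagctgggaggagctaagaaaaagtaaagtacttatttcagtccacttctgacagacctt
The 2 windows align with 56.1% identity over 228 positions, which is less than the coding sequences share. Searched on both strands, the core motif of PU.1, a transcription factor of all myeloid cells (GAGGAA), occurs once in each window, 158 to 153 bases before the start of Ly6c1 and 108 to 103 bases before that of Ly6c2. A C/EBP motif (TTNCNNAA), named for a factor family of monocytes and granulocytes, occurs in the Ly6c2 window only, 132 to 125 bases before the start and the interferon-stimulated response element core in neither. The 3 motifs occur in 19%, 30% and 2.27% of the 32851 RefSeq promoter windows of this length, so a match is common and is given as a description of these letters only.

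The libraries held 6891177 to 18592427 assigned counts (median 9357851), so that 3 counts, the limit allowed by a count of 0, corresponded to 0.150 to 0.476 CPM (counts scaled to a library total of 1000000). These limits and the intervals given for shares cover counting error only. Replicates 3 and 4 of CD11chiMϕ RAS differed by a chi-square of 5.33 per gene, against 107 to 143 for the other pairs of that group. Replicates 2 and 3 of KRM RAS differed by 11.0, against 118 to 150. Both values exceed counting noise. These libraries were kept apart, with values after merging given beside the results for the 8 genes. Beside the results for the gene lists, values after merging are given as counts. KRM Sham replicates 2 and 4 were closer than the KRM RAS pair, at 7.71, in a group whose other pairs also differed less. The KRM RAS pair thus stands out within its own group only. Merging of KRM Sham replicates 2 and 4 was not tested. The Sham replicates numbered 3 carried a summed level of 9 proximal tubule markers of 19850 CPM in CD11chiMϕ, 7201 in CD11cloMϕ and 2929 in KRM, against 164 to 572 CPM in the other Sham libraries. The counts of KRM RAS replicate 1 followed their own deposited log2 column less closely (r = 0.671 across genes) than those of the other 20 libraries (0.895 to 0.935), and followed the log2 column of KRM Sham replicate 4 best (r = 0.867). Which deposited column belongs to this library was not settled, so each of its values given here carries that doubt, and it was left out of the log2 group means. The macrophage label was checked by 9 identity markers led by C1qb, a complement subunit, none of which was at 0 in any library; their summed level was 17823 to 25419 CPM in KRM Sham, 9067 to 15331 in KRM RAS, 4622 to 11379 in CD11chiMϕ Sham, 2923 to 8857 in CD11chiMϕ RAS, 4997 to 6103 in CD11cloMϕ Sham and 5892 to 16651 in CD11cloMϕ RAS. The libraries are bulk RNA, in which fewer cells of a type and less RNA per cell cannot be told apart.

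Of the 8 genes, 6 (Ly6c2, Plac8, Vcan, Hp, Lyz2 and G0s2) had their highest mean level in CD11cloMϕ, under Sham and under RAS alike. Lyz1 was highest in CD11chiMϕ, and Ly6c1 had its highest single values in KRM from RAS kidneys. KRM had the lowest mean of the 3 populations for all 8 genes under Sham, by a narrow margin for Ly6c1 (2.39 CPM, against 3.36 in CD11cloMϕ) that turned without the Sham replicates numbered 3, and for 7 of the 8 under RAS, the exception being Ly6c1.

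**Figure D1:**
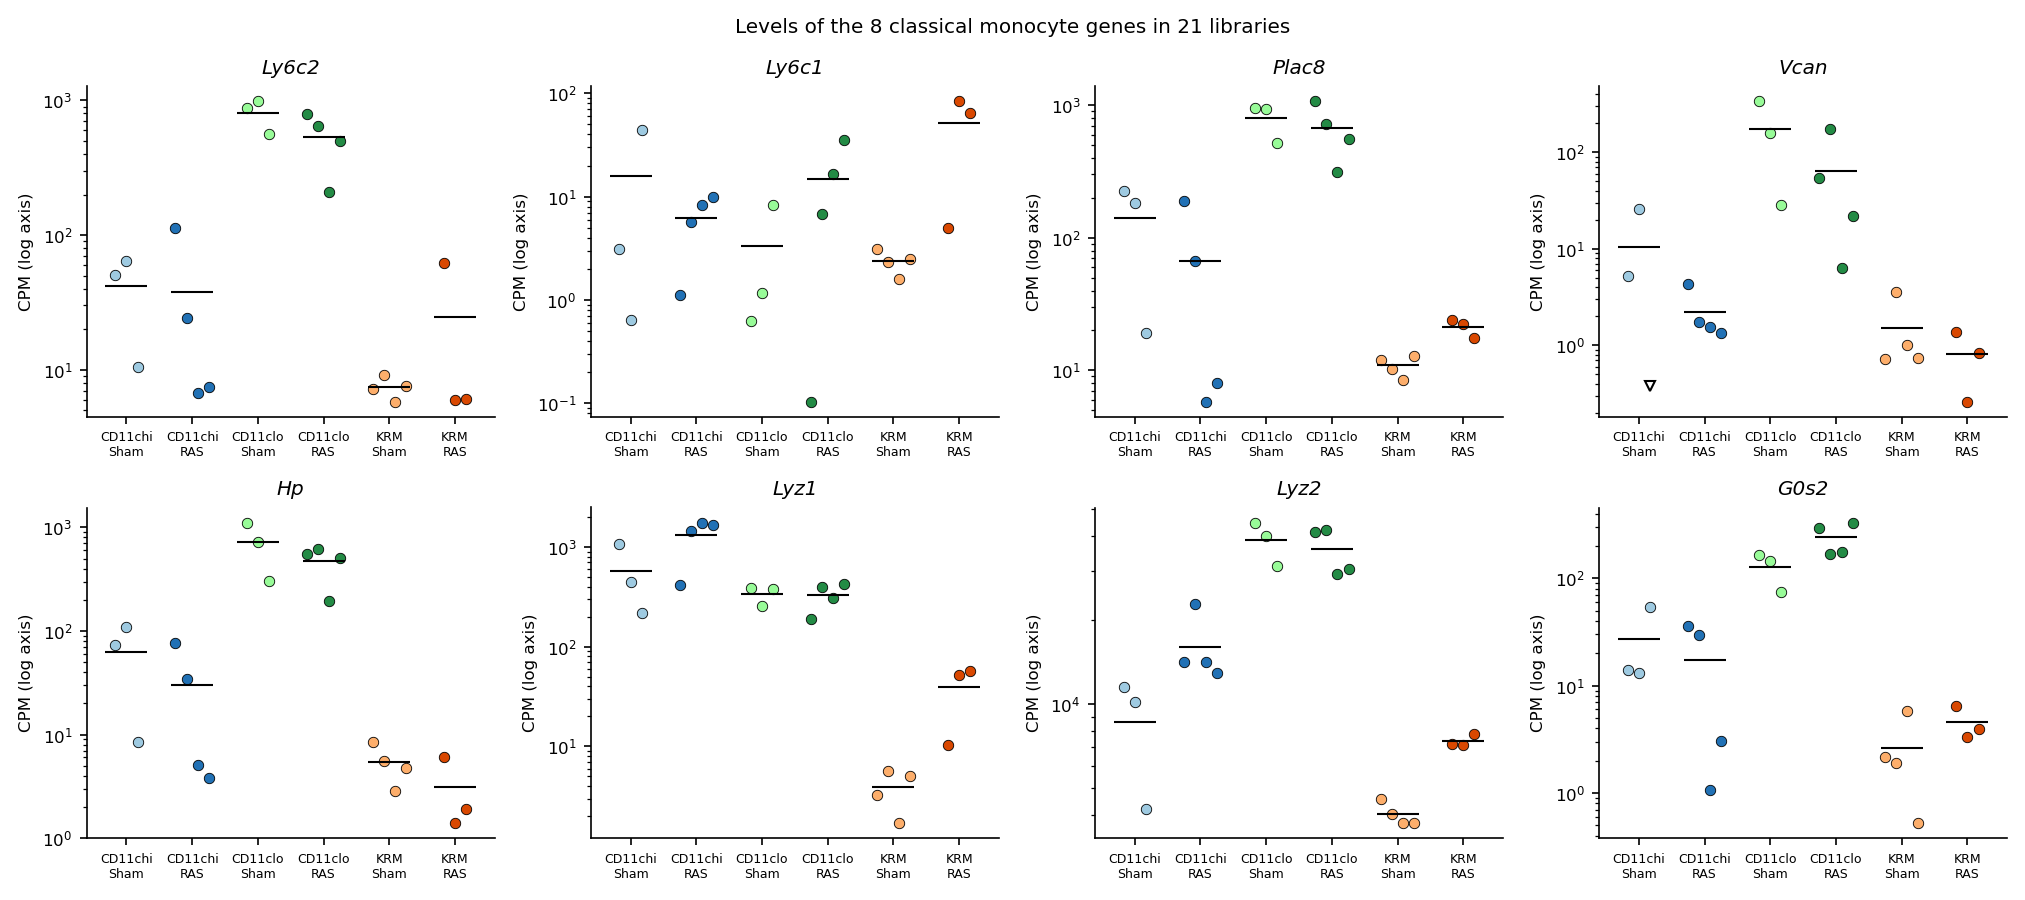
Level of each of the 8 genes in every library, in TMM-scaled CPM on a log10 axis, by population and surgery; each point is 1 library, each bar the group mean, and the open triangle for Vcan the limit allowed by a count of 0. Ly6c2, Plac8, Vcan, Hp, Lyz2 and G0s2 are highest in CD11cloMϕ, Lyz1 in CD11chiMϕ, and Ly6c1 has its 2 highest points (84.3 and 64.5 CPM) in KRM RAS.

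Ly6c2 stood at 878, 989 and 563 CPM in the CD11cloMϕ Sham libraries and at 787, 644, 208 and 498 CPM in those from RAS. In CD11chiMϕ it was 50.3, 64.7 and 10.4 CPM under Sham and 113, 24.3, 6.74 and 7.41 CPM under RAS. In KRM it was 7.22, 9.1, 5.78 and 7.63 CPM under Sham and 61.7, 5.99 and 6.04 CPM under RAS. All 7 CD11cloMϕ libraries lay above all 14 others. The next groups in the order of means, CD11chiMϕ Sham (41.8 ± 28.1 CPM, SD), CD11chiMϕ RAS (37.9 ± 50.8) and KRM RAS (24.6 ± 32.1), overlapped one another, while KRM Sham (7.43 ± 1.36) lay below all CD11chiMϕ Sham libraries but not below all CD11chiMϕ RAS libraries.

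Plac8 had the same order. It was 951, 932 and 519 CPM in CD11cloMϕ Sham and 1073, 721, 313 and 559 CPM in CD11cloMϕ RAS. CD11chiMϕ libraries spread widely, with 224, 182 and 19.1 CPM under Sham and 188, 67.2, 5.79 and 8.01 CPM under RAS. KRM had 12, 10.2, 8.53 and 12.9 CPM under Sham and 24.2, 22.4 and 17.5 CPM under RAS, so that the KRM groups did not overlap each other and both lay under every CD11cloMϕ library. As with Ly6c2, the near-identical replicates 3 and 4 were the lowest of the CD11chiMϕ RAS group.

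Hp ranged in CD11cloMϕ from 1115, 727 and 307 CPM under Sham to 549, 626, 197 and 504 CPM under RAS. In CD11chiMϕ it was 72.6, 109 and 8.41 CPM under Sham and 76.7, 34.2, 5.08 and 3.76 CPM under RAS. KRM held 8.54, 5.61, 2.84 and 4.71 CPM under Sham and 6.09, 1.39 and 1.92 CPM under RAS. The lowest CD11chiMϕ libraries of each surgery reached into the range of KRM, and no CD11cloMϕ library did.

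Vcan varied widely in CD11cloMϕ, at 339, 157 and 28.3 CPM under Sham and 54.1, 173, 6.33 and 22 CPM under RAS. Every one of these 7 values except the 6.33 and 22 CPM of RAS replicates 3 and 4 exceeded the highest value outside CD11cloMϕ (25.8 CPM, in CD11chiMϕ Sham replicate 2). In CD11chiMϕ it was 5.2 and 25.8 CPM in 2 Sham libraries and 0 in the third, which allows up to 0.377 CPM, and 4.31, 1.74, 1.54 and 1.34 CPM under RAS. KRM had 0.722, 3.6, 0.997 and 0.732 CPM under Sham and 1.37, 0.26 and 0.824 CPM under RAS.

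G0s2 was 165, 145 and 74.2 CPM in CD11cloMϕ Sham and 296, 168, 174 and 330 CPM in CD11cloMϕ RAS, 2 groups that did not overlap. In CD11chiMϕ it was 14, 13.2 and 53.5 CPM under Sham and 36.1, 29.5, 1.06 and 3.04 CPM under RAS. KRM had 2.17, 1.9, 5.83 and 0.523 CPM under Sham and 6.48, 3.3 and 3.94 CPM under RAS. Unlike Ly6c2, Plac8 and Hp, it was highest in replicate 3 among the CD11chiMϕ Sham libraries.

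Lyz2 was abundant in every library. It was 44670, 40029 and 31276 CPM in CD11cloMϕ Sham, 41246, 42040, 29322 and 30417 CPM in CD11cloMϕ RAS, 11455, 10156 and 4214 CPM in CD11chiMϕ Sham and 14140, 22800, 14094 and 12854 CPM in CD11chiMϕ RAS. KRM had 4556, 4012, 3752 and 3732 CPM under Sham and 7209, 7123 and 7798 CPM under RAS. The 7 CD11cloMϕ libraries again lay above all others, and CD11chiMϕ Sham replicate 3 fell among the KRM Sham values.

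Lyz1 differed from its neighbour. It was 1081, 445 and 218 CPM in CD11chiMϕ Sham, 412, 1456, 1760 and 1656 CPM in CD11chiMϕ RAS, 386, 256 and 378 CPM in CD11cloMϕ Sham and 192, 395, 306 and 424 CPM in CD11cloMϕ RAS. KRM had 3.25, 5.61, 1.7 and 5.02 CPM under Sham and 10.3, 51.9 and 57.4 CPM under RAS. Every KRM library lay below every library of the other 2 populations, and the CD11chiMϕ and CD11cloMϕ ranges overlapped under both surgeries.

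Ly6c1 was low in most libraries. It was 3.1, 0.637 and 43.8 CPM in CD11chiMϕ Sham, 1.12, 5.71, 8.28 and 9.83 CPM in CD11chiMϕ RAS, 0.62, 1.16 and 8.29 CPM in CD11cloMϕ Sham and 0.103 (1 count), 6.8, 16.6 and 35.3 CPM in CD11cloMϕ RAS. KRM had 3.13, 2.33, 1.6 and 2.51 CPM under Sham and 4.91, 84.3 and 64.5 CPM under RAS. The values above 20 CPM were in 4 libraries, namely Sham replicate 3 of CD11chiMϕ, RAS replicate 4 of CD11cloMϕ and RAS replicates 2 and 3 of KRM.

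Levels of different genes can be set side by side only on the deposited log2 table, which the authors made from TPM, a unit per transcript length. There Lyz2 held the highest value of the table (15.88) in 6 of the 7 CD11cloMϕ libraries, ranked 3 to 27 in CD11chiMϕ and 8 to 23 in the 6 KRM libraries used. In CD11cloMϕ Sham the order of mean log2 levels was Lyz2 (15.88), Plac8 (10.74 ± 0.44), Ly6c2 (10.71 ± 0.34), Hp (9.59 ± 0.91), Lyz1 (8.71 ± 0.34), G0s2 (7.74 ± 0.58), Vcan (4.67 ± 1.71) and Ly6c1 (2.68 ± 1.25; SD, n = 3), in which Plac8 and Ly6c2 differed by less than their spread. In KRM Sham the order was Lyz2 (12.21 ± 0.15), Plac8 (4.63 ± 0.27), Ly6c2 (3.98 ± 0.32), Hp (2.79 ± 0.63), Lyz1 (2.46 ± 0.65), Ly6c1 (2.40 ± 0.34), G0s2 (2.27 ± 0.99) and Vcan (0.51; n = 4), where Hp, Lyz1, Ly6c1 and G0s2 lay within 1 SD of each other. In the 2 KRM RAS libraries used on this scale, which are the near-identical replicates 2 and 3, Ly6c1 (7.53 ± 0.24) and Lyz1 (6.45 ± 0.14) came directly after Lyz2 (13.24), ahead of Plac8 (5.70 ± 0.24) and Ly6c2 (3.68 ± 0.06). In replicate 1, left out here, Ly6c1 ranked 5786 and Plac8 1759 in its deposited log2 column, the opposite order.

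The first comparison asked how the populations differ in the normal kidney. Against CD11cloMϕ Sham, KRM Sham had lower levels of 7 of the 8 genes, all but Ly6c1 by edgeR's quasi-likelihood test with Benjamini-Hochberg adjustment over all genes, with 22.4% of all genes tested called lower at an adjusted p under 0.05. The log2 differences were −7.12 ± 0.56 (SE) for Hp (139-fold, adjusted p = 3.66e-05, given in this place for the other genes too), −6.92 ± 0.94 for Vcan (121-fold, 0.000653), −6.81 ± 0.27 for Ly6c2 (112-fold, 1.73e-06) and −6.52 ± 0.38 for Lyz1 (91.5-fold, 8.76e-06). They were −6.24 ± 0.29 for Plac8 (75.5-fold, 3.29e-06), −5.51 ± 0.64 for G0s2 (45.7-fold, 0.000294) and −3.29 ± 0.19 for Lyz2 (9.81-fold, 8.47e-06). The groups did not overlap for these 7 genes, beside 23.9% of all genes, and Ly6c1 differed by −0.49 ± 0.80 (0.654). The direction of Ly6c1 turned with the replicate block (+0.24, adjusted p = 0.873) and without the Sham replicates numbered 3 (+1.53, 0.0518). The median over the 8 genes was −6.38, beside −0.04 over all genes. All 7 calls were kept when any single library was left out, with the replicate block, and without the Sham replicates numbered 3; with the paralogs summed, adjusted p was 1.96e-06 for Ly6c1 plus Ly6c2 and 8.16e-06 for Lyz1 plus Lyz2.

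Against CD11chiMϕ Sham, KRM Sham had lower levels of 4 genes, with 4.13% of all genes tested called lower. Lyz1 was lower by 155-fold (log2 −7.27 ± 0.70, adjusted p = 0.00372), Plac8 by 13.2-fold (−3.73 ± 0.70, 0.0277), Hp by 12.0-fold (−3.58 ± 0.76, 0.0421) and Ly6c2 by 5.73-fold (−2.52 ± 0.52, 0.039). Hp was called although its groups overlapped by 1 library; the groups of 4 genes (Lyz1, Plac8, Ly6c2 and G0s2) did not overlap, beside 10.9% of all genes. G0s2 (−3.40 ± 0.85, 0.0687), Lyz2 (−1.14 ± 0.36, 0.117), Ly6c1 (−2.85 ± 1.19, 0.196; +0.46 without the Sham replicates numbered 3) and Vcan (−2.78 ± 1.37, 0.252) did not pass, and the median over the 8 genes was −3.13, beside −0.07 over all genes. The call for Lyz1 held in the 15 alternatives run for it, with adjusted p up to 0.0329. The other 3 did not: with the replicate block they were lost (Ly6c2 0.13, Plac8 0.136, Hp 0.1) while G0s2 passed (0.0411), and the share of all genes called in either direction went from 5.13% to 0.719%. CD11chiMϕ Sham replicate 3, the library with the most tubule RNA, was the lowest of its group for 6 of the 8 genes, and without the Sham replicates numbered 3 there were 7 genes called, G0s2 (0.00287), Lyz2 (0.000741) and Vcan (0.0274) having been gained, while the share of all genes called went to 12.1%. Adjusted p was 0.00229 for Ly6c1 plus Ly6c2 and 0.104 for Lyz1 plus Lyz2. Without replicate 1 or 2 of CD11chiMϕ Sham only 1 and 2 genes were called, with 1.39% and 6.95% of all genes called. Without any 1 of the 4 KRM Sham libraries only 1 gene was called, with 1.27% to 1.84% of all genes called.

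Between CD11chiMϕ and CD11cloMϕ from Sham kidneys, Ly6c2 was lower in CD11chiMϕ by 18.9-fold (log2 −4.24 ± 0.68, adjusted p = 0.0478), the only gene of the 8 to pass, with 0.603% of all genes tested called lower. Hp (−3.47 ± 0.94, 0.135), Plac8 (−2.47 ± 0.81, 0.191), G0s2 (−2.10 ± 0.70, 0.196), Lyz2 (−2.12 ± 0.71, 0.2) and Vcan (−4.04 ± 1.66, 0.279) had the same sign without passing, and the groups did not overlap for 6 of the 8 genes, beside 14.3% of all genes. Lyz1 (+0.81 ± 0.55, 0.482) and Ly6c1 (+2.42 ± 1.69, 0.496) had the other sign. The median was −2.29, beside 0.13 over all genes, and adjusted p for the summed pairs was 0.0173 (Ly6c1 plus Ly6c2) and 0.215 (Lyz1 plus Lyz2). With the replicate block 4 genes were called, Plac8 (0.0396), Vcan (0.0388) and Hp (0.0143) having been gained, while the share of all genes called in either direction went from 1.52% to 4.92%. Without the Sham replicates numbered 3 there were 6, with Plac8 at 0.00061, Hp at 0.00063, G0s2 at 0.000164, Lyz2 at 0.00357 and Vcan at 0.00813, and 15.7% of all genes were called. Ly6c2 lost its call when any 1 of the CD11cloMϕ Sham libraries was left out (0.251, 0.245 and 0.0876), and no gene was called without CD11chiMϕ Sham replicate 1 or 2. The share of all genes called was 0% in each of these fits.

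**Figure D2:**
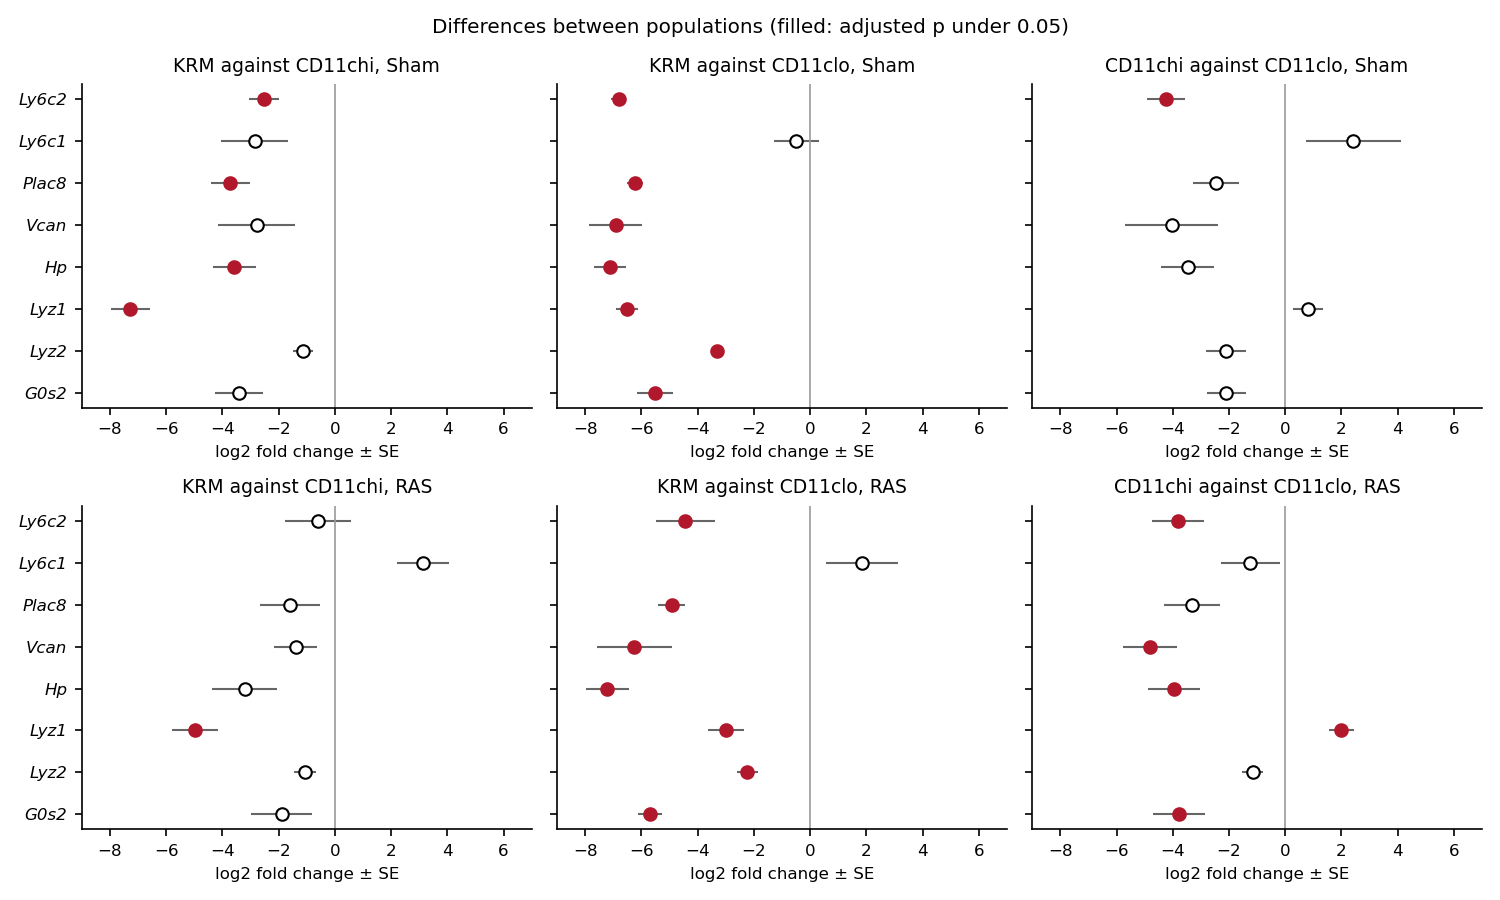
Log2 differences between populations for the 8 genes within Sham and within RAS kidneys, from the edgeR fits, with bars of 1 SE; filled points passed an adjusted p of 0.05. KRM lies below CD11cloMϕ for 7 genes under both surgeries, and Lyz1 differs from the others in being higher in CD11chiMϕ than in CD11cloMϕ under RAS.

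The same comparisons were made in RAS kidneys. Against CD11cloMϕ, KRM was again lower for the same 7 genes, with 5.89% of all genes tested called lower: Hp 148-fold (log2 −7.21 ± 0.76, adjusted p = 0.0107), Vcan 76.2-fold (−6.25 ± 1.34, 0.0374), G0s2 51.6-fold (−5.69 ± 0.43, 0.00831), Plac8 30.3-fold (−4.92 ± 0.48, 0.0089), Ly6c2 21.6-fold (−4.43 ± 1.03, 0.043), Lyz1 7.96-fold (−2.99 ± 0.63, 0.0365) and Lyz2 4.69-fold (−2.23 ± 0.37, 0.025). The groups of the 7 did not overlap, beside 17.6% of all genes. Ly6c1 was at +1.85 ± 1.30 (0.35). The median was −4.68, beside 0.06 over all genes, and adjusted p for the summed pairs was 0.0217 (Ly6c1 plus Ly6c2) and 0.0245 (Lyz1 plus Lyz2). None of the 7 calls remained when the near-identical KRM RAS replicates 2 and 3 were counted as 1 sample (adjusted p from 0.0513 for G0s2 to 0.139 for Ly6c2), nor when either of them was left out. The share of all genes called was 0% in those fits, against 9.17% in the main fit. After merging, the log2 differences of the 7 ran from −6.92 for Hp to −2.24 for Lyz2. Without CD11cloMϕ RAS replicate 1, 2 or 4, 5, 3 and 3 calls remained, with 4.14%, 0.346% and 0.686% of all genes called.

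Against CD11chiMϕ RAS, KRM RAS was lower only for Lyz1, by 31.5-fold (log2 −4.98 ± 0.81, adjusted p = 0.023), with 5.07% of all genes tested called lower. Lyz2 (−1.06 ± 0.38, 0.113) did not pass although its groups, like those of Lyz1, did not overlap, beside 15.8% of all genes, and neither did Hp (−3.22 ± 1.15, 0.11), Plac8 (−1.60, 0.355), Vcan (−1.39, 0.263), G0s2 (−1.89, 0.28) or Ly6c2 (−0.59 ± 1.17, 0.766). Ly6c1 was at +3.12 ± 0.93 (0.0703). The median was −1.49, beside 0.03 over all genes, and neither summed pair passed (0.428 for Ly6c1 plus Ly6c2, 0.0876 for Lyz1 plus Lyz2). The call for Lyz1 was lost when CD11chiMϕ RAS replicates 3 and 4 were counted as 1 sample (0.0725), and when KRM RAS replicates 2 and 3 were (0.12), with 0.359% and 0.192% of all genes called.

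Between CD11chiMϕ and CD11cloMϕ from RAS kidneys, 4 genes were lower in CD11chiMϕ and 1 was higher, with 3.12% and 5.15% of all genes tested called in these directions. Vcan was lower by 27.9-fold (log2 −4.80 ± 0.96, adjusted p = 0.019), Hp by 15.6-fold (−3.96 ± 0.92, 0.0306), Ly6c2 by 14.1-fold (−3.82 ± 0.92, 0.0355) and G0s2 by 13.8-fold (−3.79 ± 0.92, 0.0366). Lyz1 was higher by 4.00-fold (+2.00 ± 0.45, 0.029), with 1 CD11chiMϕ library inside the CD11cloMϕ range, while Lyz2 was at −1.16 ± 0.37 (0.0842). Plac8 (−3.31 ± 1.00, 0.0719) and Ly6c1 (−1.25 ± 1.05, 0.508) did not pass. For 6 genes, Plac8 and Lyz2 among them, CD11chiMϕ lay below CD11cloMϕ without overlap, beside 7.28% of all genes. The median was −3.55, beside 0.01 over all genes, and adjusted p for the summed pairs was 0.0175 (Ly6c1 plus Ly6c2) and 0.104 (Lyz1 plus Lyz2). No call was left when CD11chiMϕ RAS replicates 3 and 4 were counted as 1 sample, the adjusted p then running from 0.066 for Vcan and Hp to 0.0822 for Lyz1, with 2.2% of all genes called. Without CD11chiMϕ RAS replicate 1, which had the highest Ly6c2, Plac8, Vcan, Hp and G0s2 of its group, 6 genes were called while the share of all genes called went from 8.27% to 17.3%. None of the calls remained without CD11chiMϕ RAS replicate 2, 3 or 4, with 4.74%, 2.02% and 2.15% of all genes called. Only 1 gene was called without CD11cloMϕ RAS replicate 1, 2 or 4, with 4.96%, 2.41% and 2.36% of all genes called.

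CD11cloMϕ also carried the highest level of neutrophil genes, and Hp, Plac8 and G0s2 are known from neutrophils as well as from monocytes. The summed level of 11 neutrophil markers, led by Retnlg, a resistin-like secreted protein, was 1221 to 2864 CPM in CD11cloMϕ Sham and 2483 to 4995 CPM in CD11cloMϕ RAS, against 69.9 to 263 CPM in CD11chiMϕ Sham, 15.9 to 412 in CD11chiMϕ RAS, 94.1 to 120 in KRM Sham and 71.1 to 138 in KRM RAS. Retnlg did not lead in every library. In CD11cloMϕ RAS replicates 3 and 4 it was at 153 and 369 CPM, against 637 and 1279 CPM of Mmp9, another of the markers. In KRM it was at most at 6.29 CPM. All 7 markers tested were lower in KRM Sham than in CD11cloMϕ Sham, and all 8 in the RAS comparison, where no gene at all was called once KRM RAS replicates 2 and 3 were counted as 1 sample or either was left out. Between RAS and Sham within KRM only 6 of the 11 were tested. Some markers thus entered the comparisons with CD11cloMϕ only through that population, where the sum was high, so these counts are set in part by the filter. Ly6g, whose product defines neutrophils and was a target of the depletion, was at 0 in all CD11chiMϕ and KRM libraries and at most at 0.452 CPM in CD11cloMϕ. Across the 21 libraries the log2 level of Ly6c2 followed the neutrophil sum with r = 0.93 (0.797 after removal of group means) and that of Plac8 with r = 0.926. The part of neutrophil RNA in the differences of Ly6c2, Plac8, Hp and G0s2 between populations was not tested.

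The next question was whether RAS changed the 8 genes within a population. In KRM 4 of them rose, with 7.77% of all genes tested called higher: Ly6c1 by 23.7-fold (log2 +4.57 ± 0.84, adjusted p = 0.0269), Lyz1 by 11.3-fold (+3.50 ± 0.64, 0.0269), Plac8 by 2.11-fold (+1.08 ± 0.20, 0.027) and Lyz2 by 1.98-fold (+0.99 ± 0.15, 0.0184). For all 4 the RAS libraries lay above every Sham library, beside 10.5% of all genes. Ly6c2 was at +1.81 ± 0.79 (0.15), a mean set by the 61.7 CPM of RAS replicate 1, the other 2 RAS libraries having lain within the Sham range. Hp (−0.69 ± 0.59, 0.425), Vcan (−0.77, 0.507) and G0s2 (+0.86, 0.4) did not pass. The median over the 8 genes was +1.03, beside 0.02 over all genes. The adjusted p was 0.00157 for Ly6c1 plus Ly6c2 and 0.0179 for Lyz1 plus Lyz2.

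The 4 calls were lost when KRM RAS replicates 2 and 3 were counted as 1 sample, while the log2 differences stayed at 4.20 for Ly6c1 (adjusted p = 0.0854), 1.10 for Plac8 (0.0776), 3.19 for Lyz1 (0.0869) and 0.95 for Lyz2 (0.0622); 0.208% of all genes were then called, against 9.7% with the libraries apart. None of the 8 was called when either of these libraries was left out, nor when KRM Sham replicate 1, 2 or 4 was, with 0.204% to 0.338% of all genes called in these fits. Without KRM RAS replicate 1 the 4 genes passed and Hp was called lower (log2 −1.61, 0.0288), but 50.2% of all genes were called in that fit, which is near the share of the 8 genes.

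Markers of other cells moved in the same comparison. In KRM RAS replicates 1, 2 and 3 the summed level of endothelial markers, led by Flt1, a VEGF receptor, was 31.0, 251 and 217 CPM, against 10.7 to 23.4 CPM in KRM Sham, and 4 of the 7 tested rose. Fibroblast and pericyte markers, led by Dcn, were at 44.1, 357 and 442 CPM against 19.2 to 41.8 (4 of 6 rose), and distal tubule and collecting duct markers, led by Umod, at 129, 4559 and 3462 CPM against 12.2 to 228 (2 of 5 rose). T and NK cell markers, led by Nkg7, were at 322, 32.8 and 32.6 CPM against 2.33 to 3.01, and 7 of 7 rose. None of these 7 was tested in KRM against either other population under Sham, so they passed the count filter through the RAS libraries. Their count is therefore set in part by the filter. The same may hold for the endothelial and fibroblast lists, with 7 and 6 tested here but 5 of each in those Sham comparisons. Of 7 dendritic cell markers 3 rose and 1 fell, with sums of 145, 171 and 113 CPM against 93.3 to 117. B and plasma cell markers were at 409, 73.7 and 73.4 CPM against 411 to 516, with none of 4 called, and neutrophil markers at 138, 71.1 and 88.7 CPM against 94.1 to 120 (1 of 6 rose). The share of all genes called lower here was 1.94%. No proximal tubule marker passed, although 5 of 9 did without the Sham replicates numbered 3, as did 5 of 5 distal tubule markers tested there, and no macrophage identity marker did (median −0.74). With KRM RAS replicates 2 and 3 counted as 1 sample, 1 marker of all these lists was called, the NK cell receptor gene Ncr1 (+9.04, adjusted p = 0.0356). Thus replicates 2 and 3, which had the high Ly6c1, also had the high endothelial, fibroblast and distal tubule sums and the low B and plasma cell and neutrophil sums, and replicate 1, which had the high Ly6c2, had the high T and NK cell sum. Their part in the results for the 8 genes was not tested.

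**Figure D3:**
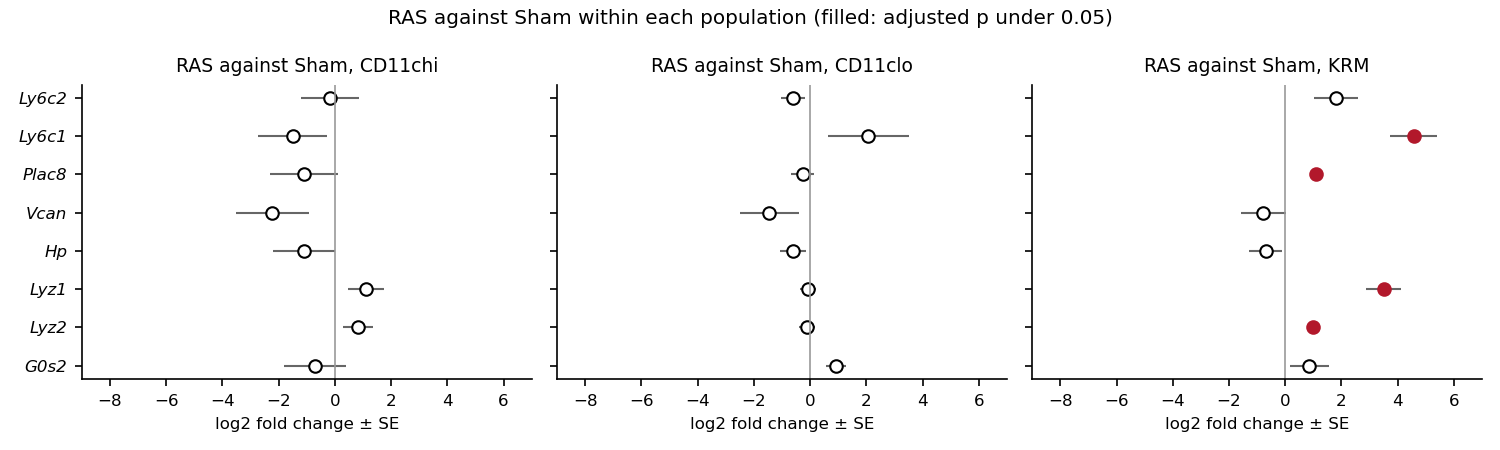
Log2 difference between RAS and Sham for the 8 genes in CD11chiMϕ, CD11cloMϕ and KRM, from the edgeR fits, with bars of 1 SE; filled points passed an adjusted p of 0.05. Ly6c1, Lyz1, Plac8 and Lyz2 passed in KRM, and no gene passed in the other 2 populations.

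In CD11chiMϕ none of the 8 genes passed between RAS and Sham, nor did any of the 12739 genes tested, a share called of 0%. At an unadjusted p under 0.05 there were 1247, and DESeq2 called 188. The largest differences among the lysozymes were +1.11 ± 0.66 for Lyz1 (adjusted p = 0.567) and +0.83 ± 0.54 for Lyz2 (0.603), the latter with all 4 RAS libraries above all 3 Sham libraries, beside 4.36% of all genes. Ly6c2 was at −0.17 ± 1.03, and the median was −0.91, beside −0.09 over all genes. In CD11cloMϕ likewise 0 of 12301 genes passed, 0%, with 1102 at an unadjusted p under 0.05 and 107 called by DESeq2. G0s2 was at +0.92 ± 0.35 (unadjusted p = 0.0292, adjusted p = 0.553) with groups that did not overlap, beside 4.46% of all genes, Ly6c2 at −0.60 ± 0.42 and Ly6c1 at +2.07 ± 1.44 (0.669), and the median was −0.19, beside −0.02 over all genes. DESeq2 called none of the 8 genes in either population.

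Whether the response to RAS differed between populations was tested by interaction terms, and none passed for the 8 genes. For KRM against CD11chiMϕ, where 0 of 14137 genes were called (0%; 3000 at an unadjusted p under 0.05; 1221 by DESeq2), Ly6c1 was at +5.95 ± 1.62 (adjusted p = 0.101), Lyz1 at +2.34 ± 0.94 (0.179) and Lyz2 at 0.11 (0.929). For KRM against CD11cloMϕ, where 0.223% of genes were called higher and 0.0216% lower, Lyz1 was at +3.50 ± 0.71 (0.0569), Lyz2 at +1.06 ± 0.32 (0.101), Plac8 at +1.31 ± 0.50 (0.143) and Ly6c1 at +2.32 ± 1.66 (0.409). For CD11chiMϕ against CD11cloMϕ, 0 of 13540 genes were called (0%; 900 at an unadjusted p under 0.05; 15 by DESeq2). So in the main fit the rises in KRM were not shown to differ from the other populations. DESeq2 called 1 of the 8 genes in the first of these comparisons and 2 in the second, with 8.64% and 10.2% of all genes called. In the second, Lyz1 also passed with total library size (adjusted p = 0.0412), without a filter (0.0412) and by limma (0.000873). Ly6c1 plus Ly6c2 passed there as a summed pair (0.0201). The shares of all genes called in these 4 fits were 0.555%, 0.338%, 10.4% and 0.346%. Without KRM RAS replicate 1, Ly6c1 passed in the first (6.47, 0.0293) and Lyz1 in the second (3.94, 0.0011), while 7.4% and 16.1% of all genes were called, so that 1 of the 8 is near the share of all genes.

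The 2 genes of each pair were then read against each other within a library, where depth cancels. Ly6c2 made up 99.5 ± 0.787% of the Ly6c1 plus Ly6c2 counts in CD11cloMϕ Sham (SD, n = 3) and 96.2 ± 3.78% in CD11cloMϕ RAS. The share was 70.8 ± 44.7% in CD11chiMϕ Sham (19.2% to 98.9%), 66.9 ± 27.7% in CD11chiMϕ RAS (42.9% to 99.0%) and 75.9 ± 4.14% in KRM Sham (70.3% to 79.5%). In KRM RAS it was 92.6% in replicate 1 (95% Wilson interval 90.4 to 94.4) but 6.63% (5.28 to 8.31) and 8.62% (6.79 to 10.7) in replicates 2 and 3. In those 2 libraries nearly all counts of the pair were thus of Ly6c1.

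Lyz1 made up 5.91 ± 2.38% of lysozyme counts in CD11chiMϕ Sham and 7.84 ± 4.16% in CD11chiMϕ RAS, against 0.895 ± 0.281% and 0.951 ± 0.377% in CD11cloMϕ. In KRM it was 0.0982 ± 0.047% under Sham and 0.532 ± 0.337% under RAS (0.142% to 0.730%). Two-sided exact permutation tests of 18 such differences gave no adjusted p under 0.05 (lowest 0.1029); the smallest p possible was 0.0286, or 0.1 for 3 libraries against 3. The raw p was 0.0286 for the Lyz1 share in KRM against CD11chiMϕ under Sham (−5.81 percentage points), in KRM against CD11cloMϕ under Sham (−0.797), in CD11chiMϕ against CD11cloMϕ under RAS (+6.89) and in KRM RAS against KRM Sham (+0.434). It was 0.0286 for the Ly6c2 share in KRM against CD11cloMϕ under Sham (−23.5 points) and 0.2286 in KRM RAS against KRM Sham (−40.0). As 16.1% of Lyz1 windows and 15.4% of Lyz2 windows are shared, a Lyz1 share below 1% is uncertain; how many reads of one copy were assigned to the other was not tested.

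**Figure D4:**
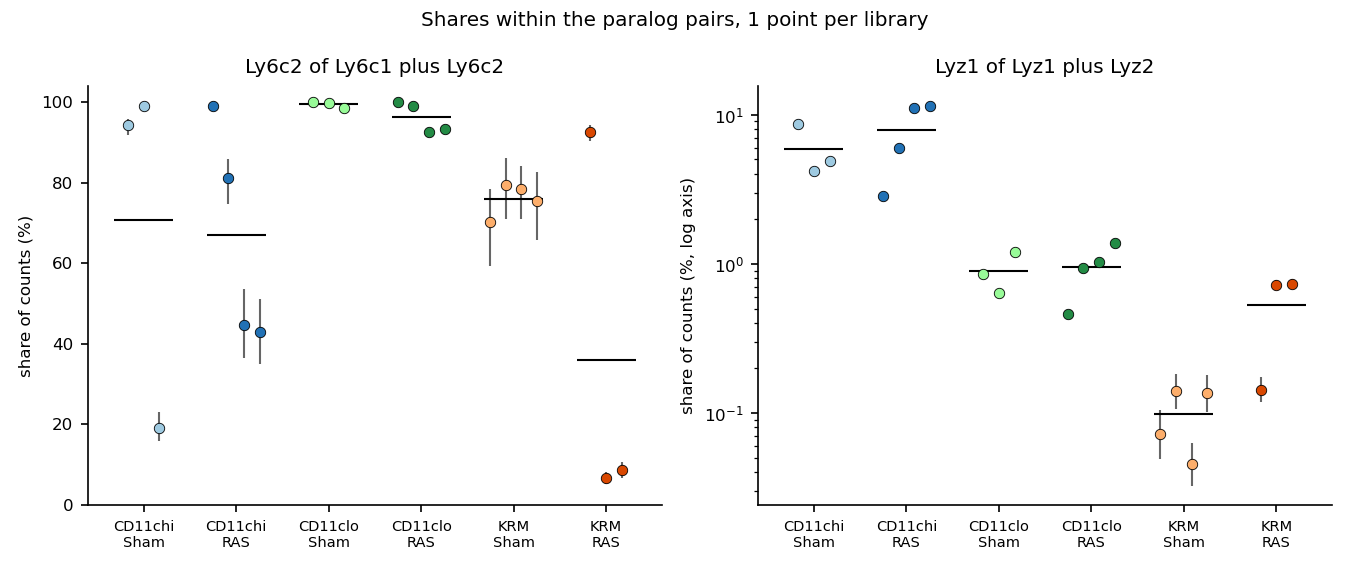
Share of Ly6c2 in the Ly6c1 plus Ly6c2 counts and of Lyz1 in the Lyz1 plus Lyz2 counts, in percent (log10 axis for Lyz1), in each library by group, with 95% Wilson intervals and bars for group means. The Ly6c2 share is over 90% in all CD11cloMϕ libraries and under 10% in KRM RAS replicates 2 and 3; the Lyz1 share is highest in CD11chiMϕ and under 1% in KRM.

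Across the 21 libraries, the log2 levels of Ly6c2, Plac8, Vcan, Hp, Lyz2 and G0s2 went together, with r from 0.704 to 0.963 over their 15 pairs and from −0.027 to 0.918 after group means were removed. The pairs Plac8 and Hp (0.963, and 0.918 within groups), Ly6c2 and Plac8 (0.96) and Ly6c2 and Hp (0.96) stood at the top. The 13 pairs that include Ly6c1 or Lyz1 ranged from −0.513 to 0.685. Ly6c1 and Ly6c2 had r = −0.364 (−0.735 within groups) and Lyz1 and Lyz2 r = 0.685 (0.338 within groups). These values describe libraries that share depth, surgery and sort, and are not tests.

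Ly6c1 followed the endothelial marker sum with r = 0.77 (0.84 within groups), the fibroblast sum with 0.746 and the distal tubule sum with 0.833. Ly6c2 had r = 0.046 with the endothelial sum (−0.761 within groups). In CD11chiMϕ Sham replicate 3, with 43.8 CPM of Ly6c1, the endothelial sum was 263 CPM, against 48.1 and 25.3 CPM in the other 2 libraries of that group. The library with the highest Ly6c1 of this group was thus also the one with the highest endothelial sum. The part of endothelial cells in the level of Ly6c1 was not tested.

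**Figure D5:**
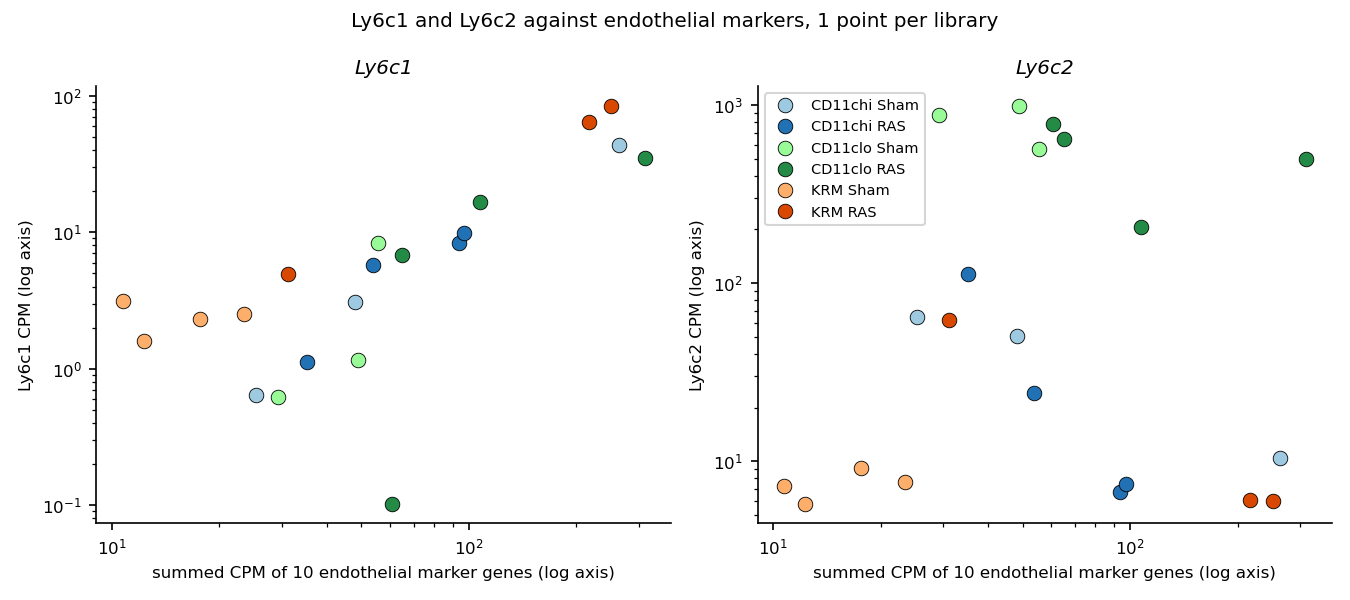
Levels of Ly6c1 and Ly6c2 against the summed level of the endothelial markers in each of the 21 libraries, all in TMM-scaled CPM on log10 axes, by population and surgery. Over the 21 libraries r is 0.77 on the log2 scale for Ly6c1, with several libraries off this trend, among them 1 of CD11cloMϕ RAS at 0.103 CPM of Ly6c1, and for Ly6c2 the same r is 0.046 over all libraries and −0.761 after group means were removed.

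The genes whose log2 level over the 21 libraries was most like each of the 8 differed by gene. They were Retnlg (r = 0.968) and Fam65b (0.962) for Ly6c2, Rasgrp2 (0.974) and F13a1 (0.96) for Plac8, Cd177 (0.979) and Emilin2 (0.968) for Hp, Svil (0.958) and Grk6 (0.951) for Vcan, and Mmp9 (0.954) and Sepx1 (0.919) for G0s2. Those of Lyz2 were Siglec5 (0.966) and Pygl (0.955), and those of Lyz1 were Cfp (0.972), the complement factor properdin, and Retnla (0.964), a secreted resistin-like protein. For Ly6c1 they were the matrix genes Sparc (0.918) and Col4a1 (0.907). Cfp stood at 366, 876, 1255 and 1291 CPM in CD11chiMϕ RAS and at 23 to 28.5 CPM in KRM Sham. Sparc stood at 7.76, 185 and 196 CPM in KRM RAS and at 4.64 to 7.22 CPM in KRM Sham, high in the same 2 libraries as Ly6c1.

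Other genes of classical monocytes, a list of 10 with 9 tested, were read beside the 8. In KRM against CD11cloMϕ under Sham all 9 were lower (median log2 −6.71), led by Fn1, which encodes fibronectin (−7.49, adjusted p = 9.2e-07), and with Ccr2, the chemokine receptor by which monocytes leave the marrow, at −1.07 (0.026). Against CD11chiMϕ Sham 6 of 9 were lower (median −3.37), among them Fn1 (−5.20, 0.00367) and F13a1, a clotting factor subunit (−3.35, 0.00706), but not Ccr2 (−0.28, 0.724); with the replicate block 4 of 9 were lower, Fn1 and F13a1 among them. None of the 9 passed between CD11chiMϕ and CD11cloMϕ under Sham (median −2.38), but with the replicate block there were 8 lower, and without the Sham replicates numbered 3 there were 9 of 10. Under RAS, 8 were lower in KRM than in CD11cloMϕ (median −5.44), 4 lower in KRM than in CD11chiMϕ (−2.43), and 4 lower in CD11chiMϕ than in CD11cloMϕ (−2.34). With KRM RAS replicates 2 and 3 counted as 1 sample these counts were 0 in the first and 2 in the second comparison, and with CD11chiMϕ RAS replicates 3 and 4 counted as 1 they were 2 in the second and 3 in the third. In KRM, RAS raised Fn1 (+1.17, 0.027) and the lectin receptor Clec4e (+1.89, 0.036) and lowered Chi3l3, a chitinase-like protein (−3.34, 0.042). After the merging of KRM RAS replicates 2 and 3, no gene of this list, nor any named below as raised or lowered by RAS in KRM, was called.

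Non-classical monocyte genes, a list of 12, were read in KRM in the same way. Against CD11cloMϕ Sham 10 were lower and 2 higher (median −2.65), the latter being Cx3cr1, the fractalkine receptor (+1.97), and Spn, the sialophorin CD43 (+1.57). In that comparison 22.4% of all genes were called lower and 19.5% higher, so that 2 of 12 higher is near the share of all genes. Against CD11chiMϕ Sham 7 were lower (median −2.87), but only 1 with the replicate block. In KRM, RAS raised Ear2, an eosinophil-type ribonuclease (+1.66), and the nuclear receptor Nr4a1 (+2.43) and lowered Spn (−1.22).

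Of the genes next to Ly6c1 and Ly6c2 in the Ly6 family, Ly6i (−5.28) and Ly6e (−1.05) were lower in KRM than in CD11cloMϕ under Sham. Ly6a, the stem cell antigen Sca-1, which endothelial cells also carry, was the 1 of 4 neighbours tested that rose in KRM under RAS (+4.36, adjusted p = 0.025), at 76.5, 920 and 659 CPM against 19 to 46.1 CPM under Sham. Its highest values were in replicates 2 and 3, as for Ly6c1.

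Partners of the other genes were read in the same way. Of the genes for versican turnover and hyaluronan, 2 of 11 were tested in KRM against CD11cloMϕ under Sham, of which Cd44, the hyaluronan receptor, was lower (−2.46, adjusted p = 1.5e-05). Of the 5 haptoglobin and heme partners tested, 2 were lower and 1 higher in KRM than in CD11cloMϕ under Sham (median −0.25), and 1 was lower than in CD11chiMϕ (median +0.14). In the first of these comparisons 19.5% of all genes tested were called higher, beside the 22.4% called lower, so that 1 of 5 higher is at the share of all genes. Cd163, the scavenger receptor for haptoglobin bound to hemoglobin, was lower in KRM than in CD11cloMϕ under Sham (−4.02, 1.9e-05) and under RAS (−2.74, 0.03, a call lost when KRM RAS replicates 2 and 3 were merged), and than in CD11chiMϕ under Sham (−2.41, 0.0062, a call lost with the replicate block). The iron exporter gene Slc40a1 was the 1 that was higher (+1.85, 0.016). Of 7 lipolysis genes that work with G0s2, 5 were lower in KRM than in CD11cloMϕ under Sham, namely Mgll (−3.58), Hilpda (−1.36), Abhd5 (−1.25), Plin2 (−0.90) and Pnpla2, the lipase that G0s2 inhibits (−0.50, 0.027, a call lost with the replicate block). In KRM under RAS the monoglyceride lipase Mgll rose (+3.62, 0.036), while none of the haptoglobin and heme partners passed.

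Of 10 transcription factors of the monocyte lineage, 7 were lower in KRM than in CD11cloMϕ under Sham, led by Cebpe (−8.64), Nr4a1 (−4.01) and Cebpb (−3.56), and 2 were higher, Irf8 (+0.99) and Cebpa (+0.86); with the replicate block 5 were lower, these 3 among them, and the same 2 higher. A count of 2 higher of 9 tested is near the 19.5% of all genes called higher there. Between CD11chiMϕ and CD11cloMϕ under RAS, Cebpb (−2.09), Cebpd (−1.26) and Zeb2 (−0.99) were lower in CD11chiMϕ, of which Zeb2 lost its call with CD11chiMϕ RAS replicates 3 and 4 merged. In KRM, RAS raised Nr4a1 (+2.43) and Cebpb (+1.07), a factor of the C/EBP family.

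CD11chiMϕ, where Lyz1 was highest, also had the highest dendritic cell marker sum, led by Cd209a: 352 to 1758 CPM under Sham and 974, 1935, 4778 and 5082 CPM under RAS, against 51.8 to 378 CPM in CD11cloMϕ and 93 to 171 CPM in KRM. Under RAS 5 of the 7 markers tested were higher in CD11chiMϕ than in CD11cloMϕ (3 with CD11chiMϕ RAS replicates 3 and 4 merged), and 2 of 7 under Sham (4 with the replicate block, 7 without the replicates numbered 3), where 0.917% of all genes were called higher. Lyz1 followed this sum with r = 0.672 over the 21 libraries and the macrophage identity sum with r = −0.825. Their part in the level of Lyz1 was not tested.

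B and plasma cell markers, the remaining list of other cells, passed for 2 of 3 genes tested in KRM against CD11cloMϕ under Sham, where they were higher (median +2.98), and for no gene in the other 11 comparisons. Without the Sham replicates numbered 3, all 3 passed there, 2 of 3 were higher in CD11chiMϕ than in CD11cloMϕ, and 1 of 3 was higher in KRM than in CD11chiMϕ. Their summed level, led by Igj, the joining chain of antibodies, was 411 to 516 CPM in KRM Sham and 12.7 to 46.8 CPM in CD11cloMϕ Sham, opposite in direction to the 7 genes called there.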

How the data were processed

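RNA of 21 sorted libraries was amplified with the SMART-Seq v4 Ultra Low Input kit, made into Nextera XT libraries and sequenced as paired ends. The authors aligned reads to mm10 with OSA (OmicSoft) and deposited estimated counts per gene under Ensembl release 83, of which 10.4 to 15.3% of values were not whole. They also deposited a log2 table of TPM after quantile normalization, used here for levels per transcript length and as an alternative. The submitters' processing notes name DESeq2.

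Counts were summed by symbol, rounded, filtered with filterByExpr (minimum 10 in enough libraries, 15 in all), scaled by TMM and tested two-sided with edgeR 4.0.16 (R 4.3.3) by quasi-likelihood on the libraries of the groups compared. Interactions used the 4 groups concerned. Benjamini-Hochberg adjustment ran over all genes tested, and an adjusted p under 0.05 was a call. CPM are TMM-scaled, and correlations used log2 CPM with a prior count of 2. Shares of paralog counts were compared by exact permutation tests. The other tools were DESeq2 1.42.0, limma 3.58.1, Python 3.11.15, pandas 2.3.3 and SciPy 1.17.1. The scripts were first tested on simulated data.

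In the Sham comparisons, same-numbered libraries of 2 populations deviated together from their group means (r = 0.201 to 0.647 across genes). The numbers were taken as pairing there, and blocked values are given beside the results whose call or count they change. Number 3 stood out (r = 0.542 to 0.647, against −0.478 to −0.369 for the best other number). In CD11chiMϕ against CD11cloMϕ, numbers 1 and 2 matched another number better (0.349 against 0.482, 0.385 against 0.457). In the KRM comparisons they matched their own better, but closely (0.208 against 0.101, 0.201 against 0.164, 0.293 against 0.265, 0.246 against 0.184). The pairing is thus doubtful for numbers 1 and 2. This pairing comes from the data, since the labels give only a number.

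The 8 genes, and the lists of other classical monocyte, non-classical monocyte, Ly6 neighbour, versican, haptoglobin, lipolysis and transcription factor genes and of macrophage, neutrophil, endothelial, fibroblast, proximal and distal tubule, B, T and NK and dendritic cell markers, were chosen with earlier results of these data known. Of the 142 list genes 142 were found, 5 under older symbols. Named beside the 8 are the 2 genes most correlated with each over 21 libraries (among 8887 with a mean log2 CPM of at least 3), up to 3 genes of smallest adjusted p per list and comparison, and the most abundant marker of each cell type; other genes named, such as Ccr2, Cx3cr1, Spn and Ly6g, were chosen after their values were seen. Some genes that this rule names are not reported here. Sequences are from RefSeq and GENCODE vM21 on GRCm38, which is mm10 in other naming.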

Additional observations from a re-analysis of the deposited data

Results flagged for a closer look

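Of the member values, 4 stood apart from the other libraries of their group by Dixon's gap test, in 24 groups of 4 values, of which chance alone flags about 1 in 20. In CD11chiMϕ RAS, replicate 1 had 113 CPM of Ly6c2 (the other libraries 6.74 to 24.3) and 4.31 CPM of Vcan (1.34 to 1.74), and replicate 2 had 22800 CPM of Lyz2 (12854 to 14140). In KRM Sham, replicate 2 had 3.6 CPM of Vcan (0.722 to 0.997). Replicates 3 and 4 of CD11chiMϕ RAS are the near-identical pair.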

How the results depend on the processing

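For 80 results on single genes, 1358 alternative values were computed, of which 1124 kept direction and side of the threshold, 146 lost and 58 gained a call, and 30 reversed. Median-of-ratios scaling changed no count of genes called. KRM against CD11cloMϕ under Sham kept 7 calls, or 6 of 6 with the paralogs summed, in every alternative. The causes of the changes below were not tested, beyond fewer libraries where libraries were left out or merged.

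Counts of the 8 genes called that moved by over 1.5 times were these; smaller moves, from 4 to between 3 and 6, from 5 to between 4 and 7, or from 7 to 5 or 6, are not listed. KRM against CD11chiMϕ, Sham (4): 2 without a filter, 1 by limma on the log2 table. CD11chiMϕ against CD11cloMϕ, Sham (1): 0 with total library size, 0 without a filter, 0 by limma, 3 in 1 fit over all 6 groups, 5 by DESeq2. KRM against CD11chiMϕ, RAS (1): 2 without a filter, 3 in 1 fit, 4 by DESeq2, 0 with paralogs summed. RAS against Sham in KRM (4): 1 in 1 fit. Interaction of KRM with CD11chiMϕ (0): 1 by DESeq2. Interaction of KRM with CD11cloMϕ (0): 1 with total library size, 1 without a filter, 2 by DESeq2, 1 by limma, 1 with paralogs summed.

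With the replicate block the counts were 2 for KRM against CD11chiMϕ and 4 for CD11chiMϕ against CD11cloMϕ under Sham. The numbers were taken as pairing there, which is doubtful for numbers 1 and 2. Over all genes the block moved calls from 635 to 89 and from 184 to 595 there. In RAS libraries (r = 0.053 to 0.505) and between RAS and Sham (r = −0.196 to 0.325) the numbers were not taken as pairing. Under RAS, number 1 of KRM did match number 1 of CD11cloMϕ (r = 0.505, best other number −0.072) and of CD11chiMϕ (0.362, −0.039). The block gave 2 for KRM against CD11chiMϕ under RAS and 0 for RAS against Sham in KRM (all genes 1247 to 42), with no other call of a count changed beyond 1.5 times. Under the block Ly6c1 in KRM against CD11cloMϕ, Sham, turned to +0.24, and Lyz2 in the interaction of KRM with CD11chiMϕ to −0.042.

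Chosen after seeing the data were the next 4 alternatives, 3 of which were also run for the gene lists. Without the Sham replicates numbered 3 the counts were 7 for KRM against CD11chiMϕ and 6 for CD11chiMϕ against CD11cloMϕ, and Ly6c1 turned to +0.46 and +1.53 in KRM against CD11chiMϕ and CD11cloMϕ under Sham. RAS against Sham turned there to +1.66 for Ly6c1 and +0.35 for G0s2 in CD11chiMϕ and +0.048 for Lyz1 in CD11cloMϕ. With CD11chiMϕ RAS replicates 3 and 4 as 1 sample the counts were 0 for KRM against CD11chiMϕ and 0 for CD11chiMϕ against CD11cloMϕ, and Ly6c2 turned to +0.19 for RAS in CD11chiMϕ. With KRM RAS replicates 2 and 3 as 1 sample the counts were 0 against CD11chiMϕ, 0 against CD11cloMϕ and 0 for RAS against Sham. By limma without KRM RAS replicate 1 they were 2 against CD11chiMϕ, 1 in the interaction with CD11chiMϕ and 1 in that with CD11cloMϕ, and Ly6c2 turned to −0.30 for RAS in KRM.

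Other reversals were Vcan by limma in KRM against CD11chiMϕ, RAS (+0.34), Vcan (+0.59) and G0s2 (−0.28) by limma for RAS in KRM, and Lyz2 in the interaction of KRM with CD11chiMϕ in 1 fit (−0.012) and by limma (−0.14). None of these 5 had passed the test.

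With each library left out in turn, genes called ranged from 1 to 6 for KRM against CD11chiMϕ and 0 to 5 for CD11chiMϕ against CD11cloMϕ under Sham, from 0 to 2, 0 to 7 and 0 to 6 for KRM against CD11chiMϕ, KRM against CD11cloMϕ and CD11chiMϕ against CD11cloMϕ under RAS, from 0 to 5 for RAS in KRM and from 0 to 1 in either interaction with KRM. Log2 differences that changed sign were Ly6c1 in KRM against CD11chiMϕ (−3.38 to 0.32), KRM against CD11cloMϕ (−0.96 to 1.37) and CD11chiMϕ against CD11cloMϕ (−0.85 to 4.34) under Sham, and Ly6c2 in KRM against CD11chiMϕ under RAS (−2.60 to 1.01). So did, for RAS against Sham, Ly6c2 (−1.77 to 0.27), Ly6c1 (−2.05 to 1.66) and G0s2 (−1.39 to 0.35) in CD11chiMϕ, Lyz1 in CD11cloMϕ (−0.24 to 0.12) and Ly6c2 in KRM (−0.22 to 2.25), and Lyz2 in the interaction of KRM with CD11chiMϕ (−0.16 to 0.41).

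The Ly6c2 share differed, in percentage points, by −20.66 to 19.21 in KRM against CD11chiMϕ and −24.69 to −21.61 in KRM against CD11cloMϕ under Sham, −40.01 to −21.29 in CD11chiMϕ against CD11cloMϕ under RAS, −29.68 to 10.19 for RAS in CD11chiMϕ and −68.32 to −25.33 for RAS in KRM. The Lyz1 share differed by −6.672 to −4.457 and −0.9271 to −0.6478 in KRM against CD11chiMϕ and CD11cloMϕ under Sham, 5.694 to 8.555 in CD11chiMϕ against CD11cloMϕ under RAS, −0.08642 to 0.2181 for RAS in CD11cloMϕ and 0.3347 to 0.6286 for RAS in KRM.

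Depth limits Vcan and Ly6c1 most, with values down to 0 and 1 count. The RAS comparisons rest on 3 or 4 libraries a group, 2 of which form a near-identical pair in CD11chiMϕ and in KRM.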
